A study of Mus musculus with 4 samples.

Results

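The miR-99/100 and miR-125 families were followed through an RBM3 knockdown by 6 names on a mouse miRNA array: mmu-miR-99a, mmu-miR-99b, mmu-miR-100, mmu-miR-125a-5p, mmu-miR-125a-3p and mmu-miR-125b-5p. They were taken by exact name from the non-control rows of the array files, and all 6 were found among 577 miRNA names, of which 567 were mouse. The samples were B104 cells, a clonal line labelled neuroblastoma, harvested 48 h after transfection with 20 nM of an siRNA duplex against RBM3 (siRBM3, 2 arrays) or after mock transfection (control, 2 arrays). RBM3 binds RNA and is induced by cold, and the comparison asks which miRNAs change when it is depleted. Cells of both groups were grown in the same medium and saw no other treatment. The controls received no scrambled siRNA, because in the study's hands it raised RBM3 slightly. The labels give the line as mouse, while the reference cited for it concerns rat lines. RBM3 mRNA is not on this array, so the knockdown itself could not be checked here. The study reports a large fall of RBM3 protein by Western blot in the experiments used for the profiling. The labels do not say whether the replicates came from separate cultures. The study speaks of triplicate experiments behind the profiling without saying which of them these arrays are, and the p-values speak only to array-to-array spread, which may be technical.

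A miRNA gene is transcribed into a long primary RNA, from which Drosha releases a hairpin and Dicer then cuts a short duplex. The strand from the 5′ side of the hairpin is called 5p and the strand from the 3′ side 3p. Usually 1 of the strands is kept in an Argonaute protein, where bases 2 to 8, the seed, pair with target mRNAs, and the other is degraded. miR-125 is the vertebrate relative of lin-4 of Caenorhabditis elegans, is abundant in brain and represses Lin28. The miR-99/100 family is known for repressing mTOR. Members of both families lie together with let-7 genes in conserved clusters.

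The mature sequences below are shown because the seeds sort the 6 miRNAs into families and because close relatives can share array signal. They come from RefSeq (GRCm38.p6), where all 6 names were matched, miR-99a, miR-99b and miR-100 to the 5p entry. The seed is in capitals and each sequence runs 5′ to 3′.
mmu-miR-99a: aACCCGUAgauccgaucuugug
mmu-miR-100: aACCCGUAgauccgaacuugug
mmu-miR-99b: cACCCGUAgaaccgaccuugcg
mmu-miR-125a-5p: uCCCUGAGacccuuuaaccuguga
mmu-miR-125b-5p: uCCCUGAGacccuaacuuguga
mmu-miR-351: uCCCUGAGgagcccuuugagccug
mmu-miR-125a-3p: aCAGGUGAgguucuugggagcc

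The first 3 share the seed ACCCGUA, which no other mature miRNA in the RefSeq table carries. mmu-miR-125a-5p and mmu-miR-125b-5p share CCCUGAG with miR-351, shown for that reason, and with 2 further RefSeq entries. The seed of mmu-miR-125a-3p belongs to no other entry. miR-99a and miR-100 differ by 1 base and miR-125a-5p and miR-125b-5p by 3 edits, so the signals of such a pair may not be independent. Cross-hybridisation between them was not tested. Probe sequences were not used here.

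The members lie in 3 clusters. On chromosome 17, on the plus strand, miR-99b (chr17:17830194-17830215) is followed by let-7e and, 623 bases downstream, by miR-125a (5p at chr17:17830817-17830840 and 3p at chr17:17830855-17830876). On chromosome 16 miR-99a (chr16:77598940-77598961) is followed by let-7c-1 and, 47.3 kb downstream, by the miR-125b-2 copy of miR-125b-5p (chr16:77646279-77646300). On chromosome 9 miR-100 (chr9:41531437-41531458) is followed by let-7a-2 and, 50.5 kb downstream, by the miR-125b-1 copy (chr9:41581940-41581961). An array reading of miR-125b-5p sums both copies. The miR-125a hairpin is shown with its arms in capitals, since the arms gave opposite results.
miR-125a hairpin (chr17:17830812-17830879, plus strand): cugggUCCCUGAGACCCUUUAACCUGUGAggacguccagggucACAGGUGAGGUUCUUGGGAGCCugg
The 5p arm has 24 bases, the 3p arm 22, and 14 bases of loop separate them.

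Signal was lower on the siRBM3 arrays as a whole. Between 148 and 164 names were detected above background on the siRBM3 arrays, against 178 and 191 on the control arrays, and the median signal of the 131 names detected in all 4 samples was 94.1 and 92.3 on the siRBM3 arrays and 370 and 413 on the control arrays. The 20 positive control probes of the array were also dimmer on the siRBM3 arrays, by log2 changes of -1.59 to -0.52, and the part of such an array-wide shift in any single change was not tested. No spot was saturated, and all 4 arrays were on 1 slide. Of 7 neural miRNAs, miR-9 and miR-128 were detected on every array and miR-124, miR-137 and miR-138 on none. All 4 muscle miRNAs looked for (miR-206, miR-1 and both miR-133 forms) were detected on every array, with summed signals of 4441 and 4591 on the siRBM3 arrays and 10192 and 12735 on the control arrays. The part of muscle-type RNA in the results was not tested. None of the blood, liver, endothelial and epithelial markers was detected. Fewer cells of a type and less RNA per cell cannot be told apart in such samples.

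After RBM3 knockdown, 5 of the 6 miRNAs gave less signal and mmu-miR-125a-3p gave more. Of the 5 lower ones, 4 were detected on every array, and their unscaled signal was 6.08-fold (mmu-miR-100) to 10.6-fold (mmu-miR-125b-5p) lower. mmu-miR-125a-3p was 2.18-fold higher. These ratios were not corrected for the array-wide shift. The median signal of names detected on every array was 94.1 and 92.3 on siRBM3 arrays and 370 and 413 on control arrays. Signals are totals over all probes of a name, in arbitrary intensity units and without scaling between arrays, and levels of different miRNAs are not set against each other because they come from different probes.

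**Figure D1:**
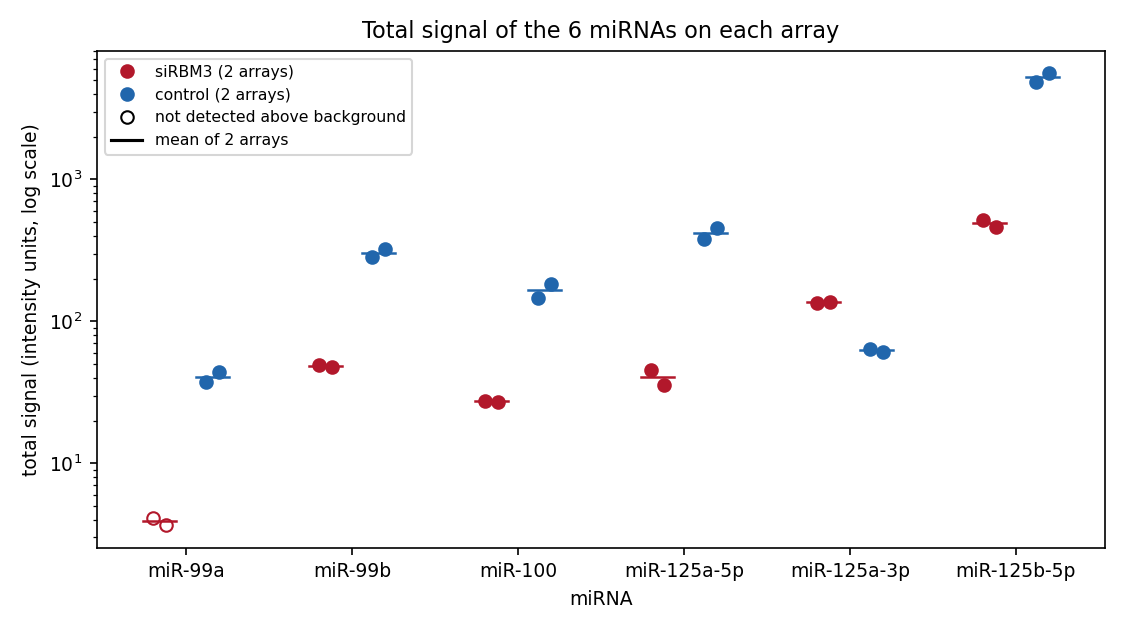
Total signal (intensity units, logarithmic axis) of the 6 miRNAs on the siRBM3 arrays (red, left) and the control arrays (blue, right). Each point is 1 array, open where the name was not detected above background, and bars are means of 2 arrays. Of the 6 miRNAs, mmu-miR-125a-3p alone is higher on the siRBM3 arrays, at 135 and 137 against 63.6 and 61.3.

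mmu-miR-125b-5p, the form processed from both miR-125b genes, read 521 and 460 on the siRBM3 arrays and 4862 and 5584 on the control arrays. Both siRBM3 arrays lay far below both control arrays. mmu-miR-125a-5p, its close relative, read 45.2 and 35.8 on the siRBM3 arrays and 380 and 454 on the control arrays. Its means were 40.5 ± 6.70 and 417 ± 52.3 (SD, n = 2 each), 10.3-fold lower in unscaled signal on the siRBM3 arrays. Again both siRBM3 arrays were the low ones. mmu-miR-125a-3p, cut from the opposite side of the same hairpin, read 135 and 137 on the siRBM3 arrays and 63.6 and 61.3 on the control arrays, means of 136 ± 1.63 and 62.4 ± 1.61 (SD, n = 2 each). Here both siRBM3 arrays were the high ones. Signal was lower on the siRBM3 arrays as a whole, and in the test described below 76.9% of all tested names were called lower and 18.5% higher. How many names of the array separated the groups in this way was not counted.

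In the miR-99/100 family, mmu-miR-99b read 48.9 and 47.7 on the siRBM3 arrays and 284 and 324 on the control arrays. Its unscaled signal was 6.29-fold lower on the siRBM3 arrays. mmu-miR-100 read 27.6 and 26.9 on the siRBM3 arrays and 147 and 184 on the control arrays. Both names stayed detected on every array. mmu-miR-99a read 4.13 and 3.66 on the siRBM3 arrays, where it was not detected above background, and 37.6 and 43.9 on the control arrays. With the siRBM3 value known only as a bound, its brighter probe, A_54_P2262, was at least 1.46-fold lower in unscaled signal on the siRBM3 arrays. The positive control probes were dimmer on these arrays too, by log2 changes of -1.59 to -0.52. The part of that shift in the bound was not tested. Such a bound sets the bright group's mean against the lowest signal among probes well above background on the dim arrays, 34.0 and 31.2 units here. Its log2 values are averaged over arrays, without scaling between arrays.

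The changes were tested with limma on log2 of the total signal plus 20, scale-normalized between arrays, over the 216 names detected on at least 1 array, with the replicate number as a block. All 6 miRNAs passed an adjusted p of 0.05, 5 of them lower and 1 higher. Of all tested names 76.9% were called lower and 18.5% higher, and with this scaling 5 lower calls among 6 are close to the share over the array. The calls over the array, 166 lower and 40 higher, depended on the scaling. They were 113 and 76 with centring on the positive control probes, 105 and 70 with scale normalization over detected names, 103 and 52 with quantile normalization and 107 and 58 with normexp and quantile normalization, and in these 4 alternatives 5 members stayed lower. They were 77 and 100 per probe and 70 and 79 with median absolute deviation scaling, where 4 members were lower. They were 21 and 144 with centring on the 75th percentile, where 2 were, and 19 and 131 in the processing with a floor of 0.5 in place of the added 20 and with normalization over mouse names, where 1 was. The median change was -1.94 over the 6 miRNAs, -1.21 over all 216 and -1.70 over the names detected on every array. The added 20 shrinks the log ratios of weak miRNAs before scaling, but the scaling also changes with the constant. With values below 0 set to 0 and 5 added, mmu-miR-99a changed by -1.91, against -1.22 as reported. mmu-miR-100 then changed by -1.75 and mmu-miR-99b by -1.81, against -1.81 and -2.07 as reported.

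The log2 difference, siRBM3 minus control, was -3.11 for mmu-miR-125b-5p (adjusted p = 1.02e-61), and no tested name had a more negative one. mmu-miR-125a-5p followed at -2.68 (adjusted p = 1.77e-52), with 3 names more negative. Both miR-125 5p strands thus stood at the low end of the array with this scaling. Over 10 ways of scaling, more negative names numbered 0 to 127 for mmu-miR-125b-5p and 2 to 48 for mmu-miR-125a-5p. Relative to the median of all tested names, the strands differed by -1.90 and -1.47 in the reported fit. mmu-miR-99b changed by -2.07 (adjusted p = 1.49e-38) and mmu-miR-100 by -1.81 (adjusted p = 2.71e-32), which is -0.86 and -0.60 relative to that median. Both lay nearer to the median of the names detected on every array, -1.70, and the miR-125 5p strands were also less far from that one. mmu-miR-99a had a fitted change of -1.22 (adjusted p = 4.13e-18). As it was not detected on the siRBM3 arrays, that value is set by the constant added, being -1.91 with 5 and -0.70 with 50, and its place among the other names is not read. mmu-miR-125a-3p rose by 1.08 (adjusted p = 5.69e-15), which is 2.30 above the median of all tested names, with 10 names more positive.

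**Figure D2:**
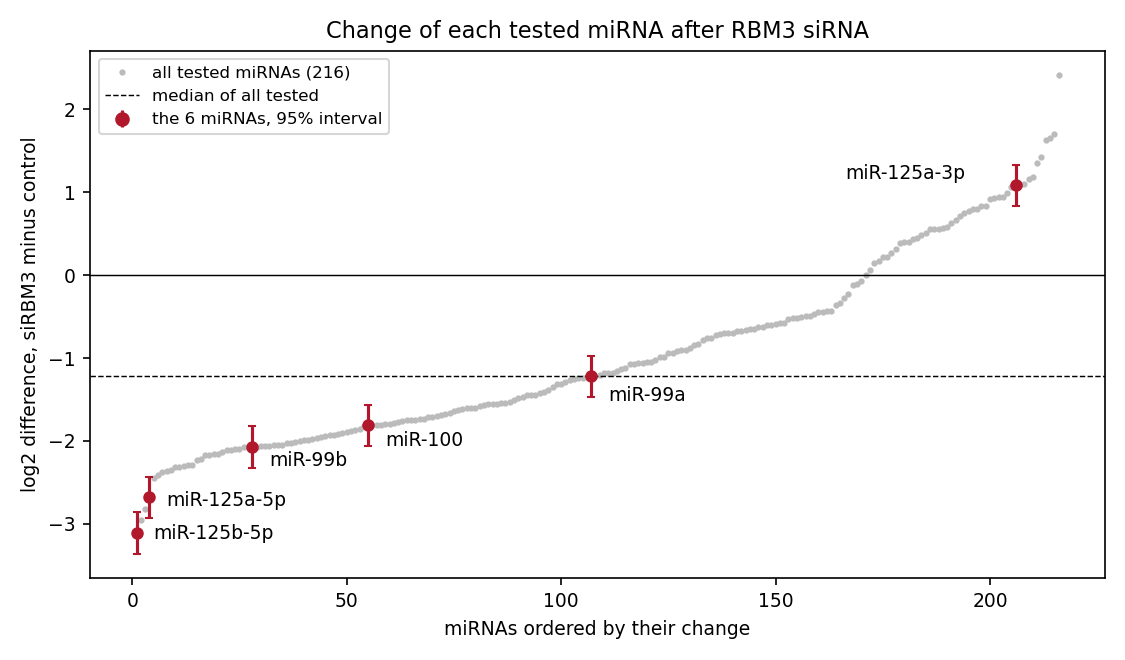
Log2 difference in total signal, siRBM3 minus control, for the 216 tested miRNAs in order of their change (grey), with the 6 miRNAs in red and their 95% intervals. mmu-miR-125b-5p is at the lowest end at -3.11, mmu-miR-99a, whose fitted value is set by the constant added because it was not detected on the siRBM3 arrays, lies by the dashed median of -1.21, and mmu-miR-125a-3p is among the highest at 1.08.

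The standard error was 0.127 for every name, because limma pooled the variance fully over the array, and the p-values rest on that pooling. Without pooling, an alternative chosen after the data were seen, none of the 6 passed, with adjusted p between 0.0555 and 0.0719 on 1 residual degree of freedom. The sign of a change also depended on how the arrays were scaled. Over 10 ways of scaling, mmu-miR-125a-3p was higher in all 10, mmu-miR-99a, mmu-miR-99b and mmu-miR-125a-5p were lower in 9, and mmu-miR-100 and mmu-miR-125b-5p were lower in 8. Where arrays were aligned at the 75th percentile of names detected in all 4 samples, the median of all tested names moved to 0.75, and mmu-miR-99a (0.76) and mmu-miR-100 (0.14) turned positive. In the alternative that put a floor of 0.5 under the signal in place of the added 20 and also normalized over mouse names alone, here called the floor processing, that median moved to 1.90, and mmu-miR-99b (1.12), mmu-miR-100 (0.71), mmu-miR-125a-5p (0.43) and mmu-miR-125b-5p (2.41) turned positive. Centring and scaling to 1 median absolute deviation turned mmu-miR-125b-5p alone, to 0.095. Centred on the positive control probes, the changes were -2.25 for mmu-miR-125b-5p, -1.74 for mmu-miR-125a-5p, -1.13 for mmu-miR-99b, -0.85 for mmu-miR-100, -0.23 for mmu-miR-99a and 2.04 for mmu-miR-125a-3p, and all 6 passed. mmu-miR-99b, mmu-miR-100 and mmu-miR-125a-5p lay below the median of the same fit in all 10 scalings, and mmu-miR-125a-3p above it in all 10. mmu-miR-125b-5p was below it in 8 and mmu-miR-99a, with the limit above, in 7. These scalings are not all separate checks. No scaling and centring on the 75th percentile or the positive controls differ only by a shift per array, so they give the same value relative to the median. That median covers all tested names, weak ones included. As reported, the median of the names detected on every array was lower, at -1.70, with mmu-miR-100 at -1.81. No count over the scalings was made against the names detected on every array.

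**Figure D3:**
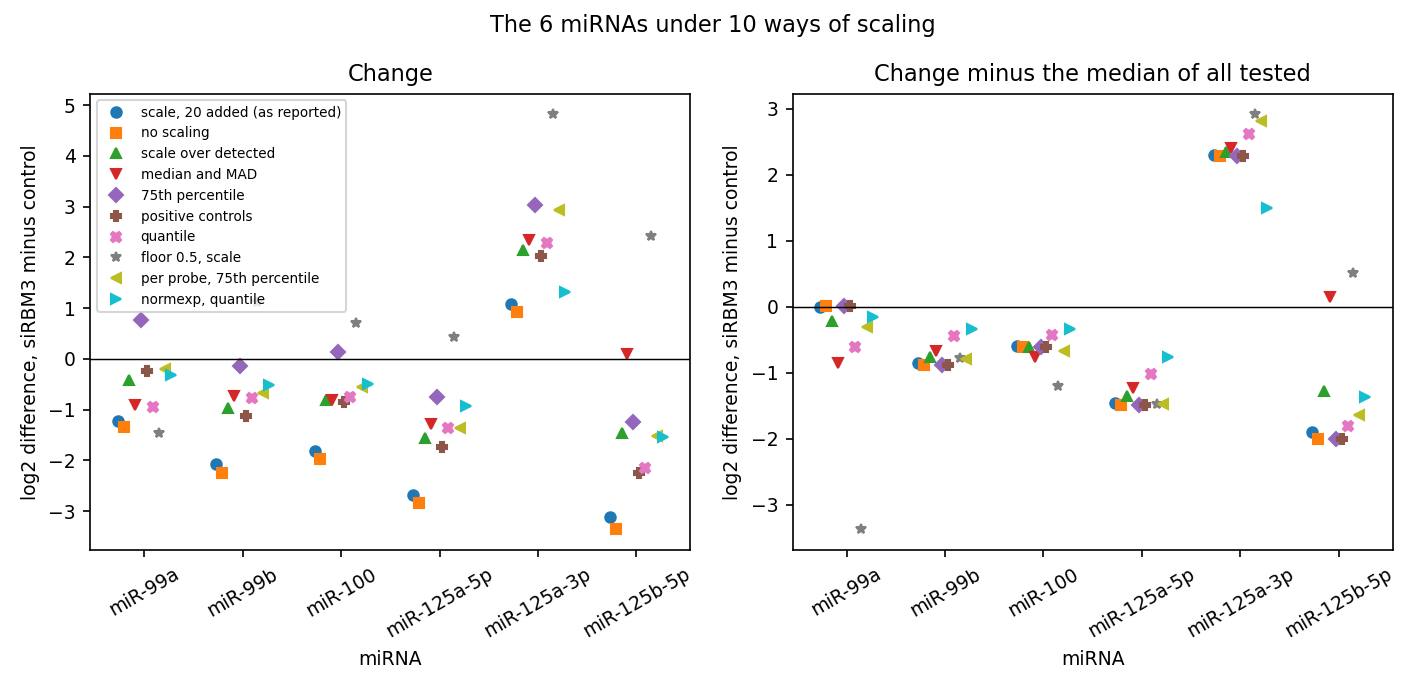
Log2 difference of the 6 miRNAs, siRBM3 minus control, under 10 ways of scaling (1 symbol each), as fitted on the left and minus the median of all names tested in the same fit on the right. mmu-miR-125a-3p is above 0 throughout, mmu-miR-125a-5p is below 0 on the left except in the floor processing (0.43) and below 0 throughout on the right, and mmu-miR-125b-5p is above 0 in that processing (2.41) and with median absolute deviation scaling (0.095).

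The arms of miR-125a were then compared within each array. On unscaled log values, a shift common to all probes of an array drops out of the difference apart from the effect of the added 20. The scale normalization used here multiplies the log values by a factor per array, which does not drop out. The positive control probes also did not shift alike, with log2 changes of -1.59 to -0.52. The log2 difference of 5p minus 3p was -1.26 and -1.52 on the siRBM3 arrays and 2.24 and 2.50 on the control arrays. The sign of such a difference says nothing about which arm is more abundant, since different probes read the arms, but its change between arrays can be compared. The change was -3.76 (SE 0.150, limma over 31 hairpins with both arms detected on at least 1 array, adjusted p = 2.39e-06). An exact two-sided permutation test over the 4 arrays gave p = 0.333, the smallest that this design allows. Without scaling between arrays the change was -3.77.

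Of the 31 hairpins, 67.7% were called with the 5p or unstarred strand lower relative to the other and 19.4% with it higher. The median change was -0.59, and that of miR-125a was the most negative. It stayed the most negative among the hairpins of each fit in all 22 alternatives, where it ranged from -4.39 to -2.25, and it missed the threshold only without pooling of the variance (adjusted p = 0.113). Arms called in opposite directions were seen in 3 hairpins, miR-125a, miR-466f and miR-574, the last 2 chosen after their values were seen. In miR-125a the 5p strand was lower and the 3p strand higher. In the other 2 the 5p strand was the higher one. Opposite calls of the miR-125a arms were kept in 20 of the 22 alternatives, some of them refits of the same values. They were not kept in the floor processing, where 5p was at 0.43, nor without pooling.

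**Figure D4:**
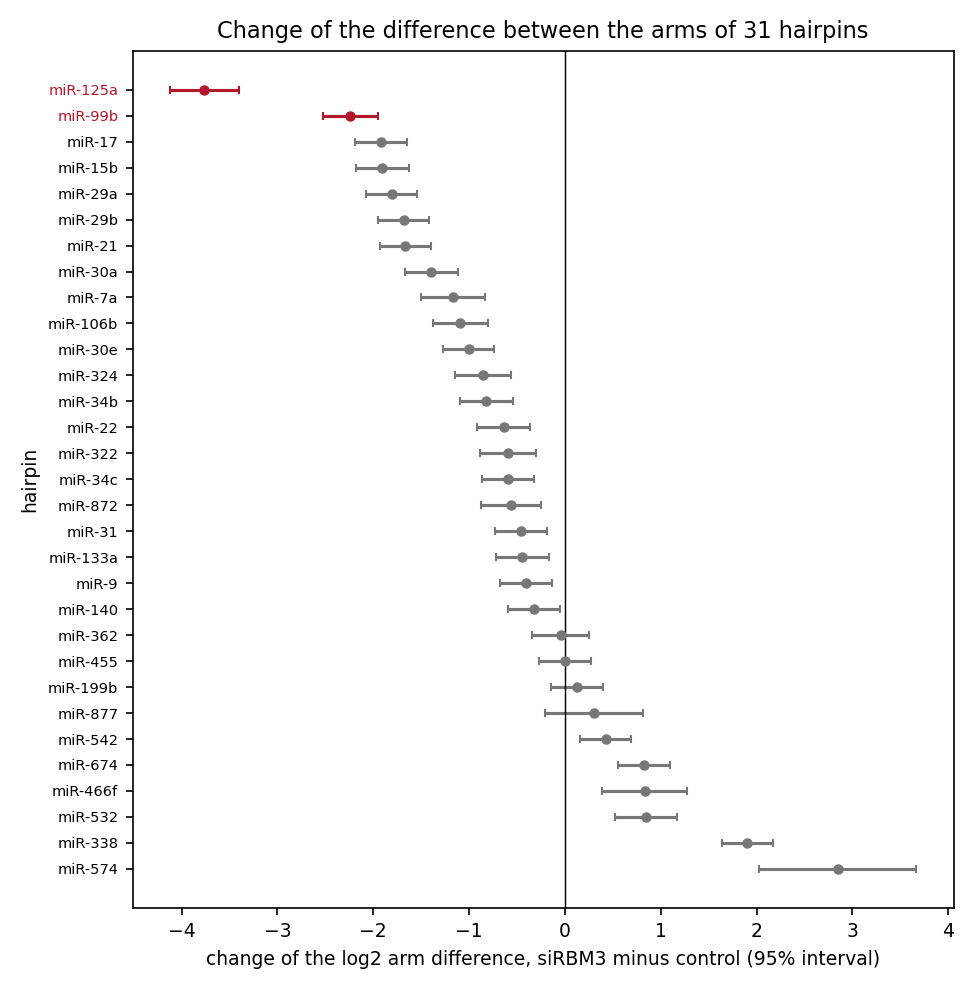
Change of the log2 difference between the strands of each hairpin (5p minus 3p, or unstarred minus starred), siRBM3 minus control, with 95% intervals, for 31 hairpins. miR-125a at -3.76 and miR-99b at -2.24, in red, are the most negative, and their intervals do not reach 0.

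miR-99b, the neighbour of miR-125a, was the only other member hairpin with both strands detected. Its second strand, named miR-99b* on the array and 99b-3p in RefSeq, is shown for comparison with the miR-125a-3p sequence.
mmu-miR-99b*: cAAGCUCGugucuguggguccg
mmu-miR-99b* read 22.3 and 23.1 on the siRBM3 arrays and 21.8 and 21.2 on the control arrays, although no more than 1 spot of any of its probes was well above background. It was detected on all 4 arrays and its change of 0.17 did not pass the test (adjusted p = 0.197, 95% interval -0.08 to 0.42), while 8 of 22 alternatives called it higher. The difference of mmu-miR-99b minus mmu-miR-99b* was 0.71 and 0.66 on the siRBM3 arrays and 2.84 and 3.01 on the control arrays, a change of -2.24 (SE 0.120, adjusted p = 7.17e-06). That was the second most negative of the 31 hairpins in the reported fit. In the 22 alternatives the miR-99b change ranged from -2.64 to -0.61, the latter with normexp and quantile normalization. It was called in 21 of them and not without pooling of the variance (limma fit, adjusted p = 0.109). Its rank in the alternatives is not given here. The other strands of miR-125b on the array, miR-125b* and miR-125b-3p, were detected on none of the 4 arrays, with total signals between -2.64 and 5.09 units.

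Probe by probe, the 5p strand of miR-125a is read by 2 probes with 10 spots each and the 3p strand by 4 probes with 5 spots each. A_54_P2276, the brighter 5p probe, averaged 45.9 and 38.6 over its spots on the siRBM3 arrays and 366 and 431 on the control arrays. A_54_P2275 averaged 22.2 and 15.3 on the siRBM3 arrays, not well above background, and 189 and 230 on the control arrays, so it was at least 6.40-fold lower. Both 5p probes were low on the siRBM3 arrays.

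For the 3p strand, A_54_P2278 averaged 127 and 128 on the siRBM3 arrays and 55.9 and 52.0 on the control arrays. A_54_P2279 averaged 101 and 99.98 on the siRBM3 arrays and 42.2 and 39.7 on the control arrays. A_54_P2280 averaged 116 and 119 on the siRBM3 arrays and 65.4 and 67.0 on the control arrays. These 3 probes were high on both siRBM3 arrays. A_54_P2277 averaged 62.7 and 67.5 on the siRBM3 arrays and 22.5 and 19.8 on the control arrays, where it was not well above background, so it was at least 1.73-fold higher.

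**Figure D5:**
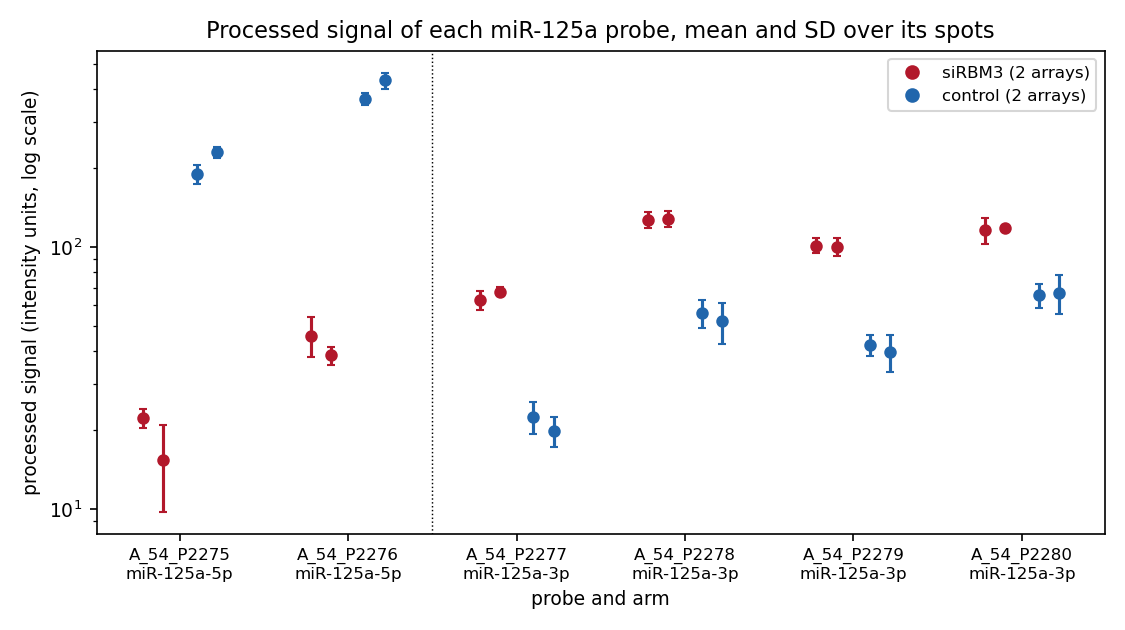
Mean processed signal (intensity units, logarithmic axis) of each miR-125a probe on the siRBM3 arrays (red, left) and the control arrays (blue, right), 1 point per array, with the SD over the spots of the probe. Both 5p probes are lower on the siRBM3 arrays (A_54_P2276 at 45.9 and 38.6 against 366 and 431) and all 4 probes of 3p are higher.

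In limma on unscaled log2 probe signals plus 5, over the 546 probes of the tested names, both 5p probes were called lower, with log2 differences of -3.10 and -3.18, and all 4 of the 3p probes higher, by 0.78 to 1.42 (largest adjusted p of the 6, 0.0115). Of all 546 probes 61.0% were called lower and 15.0% higher. The 6 calls were unchanged in the 8 alternatives run for the probes. All 10 probes of the 5 miRNAs that fell were called lower, between -3.39 for A_54_P2282 of mmu-miR-125b-5p and -1.59 for A_54_P2263 of mmu-miR-99a. These 5 were grouped by totals taken over the same probes, so the 10 calls are no separate support for their fall. A_54_P2263 was not well above background on any array, so its change is no measured fold. The -3.18 of A_54_P2275 and the 1.42 of A_54_P2277 are fitted values against a group without a spot well above background, and for these probes only the bounds of at least 6.40-fold lower and at least 1.73-fold higher hold. The dimmer probe of mmu-miR-100, A_54_P1437, was at least 2.95-fold lower. The positive control probes fell by unequal log2 changes of -1.59 to -0.52 on the same arrays, and the part of an array-wide shift in these probe changes was not tested.

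Of the names outside the 6, miR-351 carries the miR-125 seed. It read 5.03 and -1.44 on the siRBM3 arrays, not detected, and 16.2 and 16.7 on the control arrays. Its fitted change of -0.65 passed the test (adjusted p = 1.04e-06). Its probe well above background on the control arrays, A_54_P1414, was at least 1.42-fold lower in unscaled signal, and the part of the array-wide shift in that was not tested. Since it was not detected on the siRBM3 arrays, the size of its change depends on the constant added (-1.23 with 5 and -0.32 with 50) and is not set against that of the other miRNAs with the seed. Its sign turned in 4 alternatives, among them centring on the positive control probes (0.35).

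The let-7 family, which represses Lin28 and Ras genes and sits between the members in all 3 clusters, was called lower in all 9 names, with a median of -2.10 and a range of -2.31 to -1.79, against the 76.9% of all names called lower. All 9 were also called lower with centring on the positive control probes, where 113 of 216 names were, and with scale normalization over detected names, where 105 were. let-7e, between miR-99b and miR-125a, read 142 and 137 on the siRBM3 arrays and 600.1 and 720 on the control arrays, a change of -1.89. let-7c, next to miR-99a, changed by -2.23, and let-7a, next to miR-100, by -2.16. Near-identical let-7 sequences can share array signal, as can the several gene copies behind let-7a and let-7c. Within the chromosome 17 cluster the changes were thus -2.07 for mmu-miR-99b, -1.89 for let-7e, -2.68 for mmu-miR-125a-5p and 1.08 for mmu-miR-125a-3p. The let-7 calls fell to 6 with quantile normalization, to 4 with centring on the 75th percentile and to 0 in the floor processing or with median absolute deviation scaling.

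The miRNAs whose pattern over the 4 arrays was most like each member were found by the Euclidean distance between log2 values centred on their own means. For mmu-miR-125b-5p they were miR-199b*, miR-199b and mmu-miR-125a-5p, at distances of 0.184, 0.294 and 0.435. For mmu-miR-125a-5p they were miR-199b (0.147), miR-199b* (0.275) and miR-93 (0.282). Both miR-125 5p strands thus had the miR-199b strands as nearest neighbours, and these changed by -2.82 and -2.95. For mmu-miR-125a-3p they were miR-135a* (0.0375), miR-483 (0.155) and miR-671-5p (0.174), which changed by 1.08 to 1.16. mmu-miR-99b was nearest to miR-107, let-7d and miR-24, mmu-miR-100 to miR-34a, miR-196a and miR-9*, and mmu-miR-99a to miR-31*, miR-423-5p and miR-185, all at distances of 0.0237 to 0.0871. With 4 arrays in 2 groups this likeness is set mainly by the size of the change.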

How the data were processed

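Small RNA of B104 cells was labelled with Cy3 and hybridised to 1-colour Agilent mouse miRNA arrays. The authors extracted signals with Agilent Feature Extraction 10.1.1.1; the deposited intensity values are background-subtracted processed signals per spot and a total signal per miRNA, with detection flags, and the deposited value table equals the total signal plus 20. The study's methods name scale normalization, a detection filter and a limma fit for paired samples. Here log2(total signal + 20) was scale-normalized over 577 names with limma 3.58.1 in R 4.3.3. Names detected on at least 1 array were fitted, blocking on replicate number, with Benjamini-Hochberg adjustment. Spots flagged as outliers were left out of probe means. Scripts were tested on simulated data. The block rests on the methods; deviations of same-numbered arrays correlated at -0.34 over 216 names. Precision is limited by having 2 arrays a group. Members and lists were chosen with earlier results of these data known; that earlier processing, with a floor of 0.5 and normalization over mouse names, is an alternative here. Named were the 6 members, other strands of their hairpins, miR-351, 3 let-7 neighbours and the 3 nearest patterns of each member. Alternatives were other scalings, constants of 5 and 50, detection filters, normexp with an offset of 50, the deposited table, no block and each array left out. A crossed pairing, a variance trend and no pooling were added after the data were seen.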

Additional observations from a re-analysis of the deposited data

How the results depend on the processing

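The count of members called lower, 5 as reported, was 2 with centring on the 75th percentile, 1 in the processing with a floor of 0.5 in place of the added 20 and normalization over mouse names, and 0 without pooling of the variance. It was 5 whichever array was left out, in fits without the block. The let-7 count, 9 as reported, was 4, 0 and 0 in the same alternatives. It was 0 with median absolute deviation scaling, 6 with quantile normalization and 9 with each array left out. Signs turned with centring on the 75th percentile for miR-99a (0.76), miR-100 (0.14) and miR-351 (1.35). In the processing with the floor they turned for miR-99b (1.12), miR-100 (0.71), miR-125a-5p (0.43) and miR-125b-5p (2.41), and with median absolute deviation scaling for miR-125b-5p (0.095). miR-351 also turned with scale normalization over detected names (0.095), with positive controls (0.35) and per probe (1.11). The floor was not run apart from its normalization, and the cause of the turns was not tested. The change of the miR-125a arms kept its value of -3.76 without pooling of the variance but not its call (adjusted p = 0.113), and was -3.89 to -3.63 with each array left out. Without the replicate block 5 members and 9 let-7 names were called lower and the arm change of -3.76 was called (adjusted p = 2.79e-05), so no such call rested on the pairing. Same-numbered arrays correlated at -0.34, and the replicate block with crossed pairing, added after the data were seen, called 167 lower and 40 higher, against 166 and 40. miR-99a, not detected on the siRBM3 arrays, is limited by background there and was absent from the fit restricted to names detected on every array.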
